A study of Mus musculus with 48 samples.

Results

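The genes described here encode 10 subunits of the BAF (mammalian SWI/SNF) chromatin remodelling complex: the ATPases Smarca4 and Smarca2, the core subunits Smarcc1, Smarcc2, Smarcb1, Smarcd1 and Smarce1, the ARID subunits Arid1a and Arid1b, and the actin-related subunit Actl6a. They were taken by name from a table of 48321 rows, and all 10 were found once each. Their transcript levels were compared in male R1 mouse embryonic stem cells of strain 129SV, in 3 lines with 3 polyadenylated RNA-seq libraries each. The lines were wild type (WT), Mll3/4 dKO, in which both histone methyltransferases Mll3 (Kmt2c) and Mll4 (Kmt2d) are knocked out, and Mll3/4 dCD, in which both are catalytically deficient. All 3 lines were grown in serum-free medium with LIF and inhibitors of MEK and GSK3 (2i). Each genotype is represented by 1 line, and nothing in the labels says that its replicates were separate cultures. The p-values therefore rest on the spread of 3 libraries per line, which may be technical, and a property of a line cannot be told apart from its genotype.

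BAF complexes use ATP to slide or evict nucleosomes, and they keep enhancers and promoters open to transcription factors. Each complex holds 1 ATPase, either Smarca4 (BRG1) or Smarca2 (BRM), a core around Smarcc1 and Smarcc2, and accessory subunits that differ between the canonical form with Arid1a or Arid1b, the PBAF form with Arid2 and Pbrm1, and the noncanonical form with Brd9. Embryonic stem cells are known for a form built on Smarca4, Smarcc1 and Arid1a, with little Smarca2 or Smarcc2. Mll3 and Mll4 place monomethylation on lysine 4 of histone H3 at enhancers, where BAF complexes also act.

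The stretch before the annotated start is shown for the 2 alternative ATPase genes, whose levels lay furthest apart, and for Actl6a, the member with the larger fall in dKO of the 2 that were lower in both mutant lines, the other being Smarcc1. These are RefSeq sequences of build GRCm38.p6, all on the plus strand and written 5′ to 3′, from 250 bases before the start up to the start. Capitals mark matches on either strand to the GC box GGGCGG, to TGCGCA, a part of the NRF1 site, and to the ETS core CCGGAA.
Smarca4, chr9:21615919-21616168: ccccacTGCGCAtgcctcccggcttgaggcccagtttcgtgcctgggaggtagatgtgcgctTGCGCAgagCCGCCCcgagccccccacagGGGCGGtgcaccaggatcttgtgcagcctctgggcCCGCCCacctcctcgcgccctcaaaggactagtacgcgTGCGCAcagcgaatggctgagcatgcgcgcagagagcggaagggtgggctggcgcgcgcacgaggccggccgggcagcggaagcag
Smarca2, chr19:26604910-26605159: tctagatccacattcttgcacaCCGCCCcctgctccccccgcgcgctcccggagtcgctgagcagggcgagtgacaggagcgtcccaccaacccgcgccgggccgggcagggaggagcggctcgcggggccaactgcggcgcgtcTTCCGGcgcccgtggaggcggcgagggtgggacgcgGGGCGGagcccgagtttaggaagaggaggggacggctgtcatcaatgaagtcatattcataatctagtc
Actl6a, chr3:32708296-32708545: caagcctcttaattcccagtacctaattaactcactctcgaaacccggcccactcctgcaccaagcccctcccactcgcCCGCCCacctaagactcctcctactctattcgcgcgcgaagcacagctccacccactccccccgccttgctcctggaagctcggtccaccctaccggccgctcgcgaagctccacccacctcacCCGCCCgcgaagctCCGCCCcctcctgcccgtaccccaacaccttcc
The Smarca4 stretch held 3 matches to the GC box and 3 to TGCGCA, the Smarca2 stretch 2 to the GC box and 1 to the ETS core, and the Actl6a stretch 3 to the GC box. Among 32841 RefSeq windows of this length, 32.8% held the GC box, 6.43% TGCGCA and 12.0% the ETS core. All 3 stretches were rich in G and C (70.8%, 68.4% and 64.8%, against a median of 52.4% over all windows). The letters of the E-box CACGTG and of the TATA box TATAAA were also searched on both strands and are not in these stretches. None of the 5 motifs contains another. Of the 10 members 9 had an entry in the RefSeq table, all but Smarce1, and a member can have more than 1 window. The GC box was in 9 of their 10 windows, all but that of Smarcc2.

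Depth, recovered from the TPM values as described below, was 21090624 to 56249770 reads per library. The targeted gene Kmt2c measured 19.7 to 21.9 TPM in WT, 7.44 to 8.0 in dKO and 25.3 to 28.6 in dCD. Kmt2d measured 65.2 to 67.4, 80.5 to 84.8 and 54.6 to 67.8 TPM, and since the edited part of these genes is not stated, their levels check the labels only in part. Kmt2c was lower in dKO (limma log2 fold change -1.35 with SE 0.0568, adjusted p = 8.37e-09) and Kmt2d was not (0.32, adjusted p = 0.00194, limma). All 10 listed markers of embryonic stem cells were expressed in every line, 8 of them lower than WT in dKO and 9 in dCD. Among all tested genes 28.4% were lower in dKO and 29.5% in dCD. The summed marker levels were 14753 to 15228 TPM in WT, 8086 to 8169.6 in dKO and 11068 to 11436 in dCD. Most of the lower sum in dKO was Dppa5a, at 1199 ± 15.4 against 6433 ± 231 TPM, and Klf4 was higher there (limma log2 fold change 0.76, adjusted p = 4.26e-09). Over all 16179 tested genes the median log2 fold change of dKO against WT was 0.10, and 60.4% of the genes passing the test were higher. After median-ratio scaling between libraries the median was 0.01 and 49.9% were higher. A shift of this size enters every dKO value below. It was larger for long genes, with a median log2 fold change of 0.14 in the fifth of genes of 6187 bases or more, which holds 7 of the 10 members, and 0.01 in the fifth of 1430 bases or fewer, which holds none. The part of this shift, and of the lower stem cell markers, in the results was not tested.

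TPM is a level per length of transcript, so levels can be compared between genes. In WT the members spanned from 322 ± 4.59 TPM (SD, n = 3) for Smarca4 to 1.60 ± 0.121 TPM for Smarca2. Smarca4 was followed by Smarcc1, Smarcd1, Actl6a and Arid1a, which lay between 159 and 219 TPM, and then, well below, by Smarcb1, Smarce1, Smarcc2 and Arid1b at 21.2 to 56.3 TPM. Only the neighbours Smarcd1 and Actl6a had overlapping WT libraries in this order. In dKO, Arid1a moved from the fifth to the second place, above Smarcc1, Smarcd1 and Actl6a. In dCD it stood in the third place, below Smarcc1. Smarca4 stayed first and Smarca2 last in all 3 lines. The summed level of the 10 genes was 1192 to 1207 TPM in WT, 1320.0 to 1330.0 in dKO and 1071 to 1124 in dCD, so the libraries of the 3 lines did not overlap in this sum. Most of the higher sum in dKO was Arid1a, at 258 ± 1.45 against 159 ± 1.81 TPM in WT. The sums are of unscaled TPM, so the shift of dKO values given above enters the dKO sum as well. The means of Smarca4, Smarcc1, Actl6a and Smarca2 were lower in dKO. Single genes without overlap were common too, at 74.4% of tested genes for dKO against WT, 63.5% for dCD against WT and 73.1% for dKO against dCD.

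**Figure D1:**
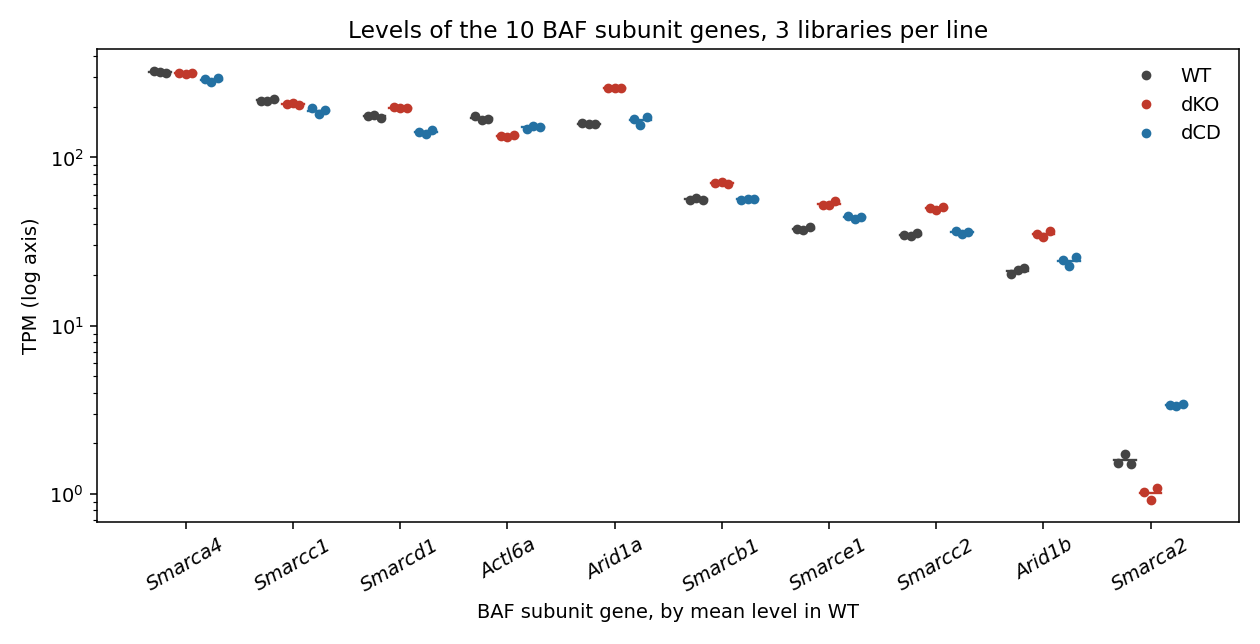
TPM (log axis) of the 10 BAF subunit genes in each library of WT, dKO and dCD; points are libraries and bars are means of 3. Smarca4 is highest and Smarca2 lowest in every line; Arid1a in dKO and Smarca2 in dCD lie clearly above their WT libraries.

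The ATPases were taken first. Smarca4, which supplies the motor of nearly all BAF complexes in embryonic stem cells, measured 326, 322 and 317 TPM in WT, 319, 315 and 319 TPM in dKO and 294, 279 and 296 TPM in dCD. The dKO libraries overlapped those of WT, while every dCD library lay below both. It did not pass the test in dKO (limma log2 fold change -0.02 with SE 0.0251, adjusted p = 0.488, 95% interval -0.08 to 0.04), although it was lower after median-ratio scaling (-0.12, limma adjusted p = 0.00109) with voom on recovered reads (-0.13) and with the length trend removed (-0.14). In dCD it fell (limma log2 fold change -0.15 with SE 0.0251, adjusted p = 0.000439), to 0.90 times the WT level.

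Smarca2, the alternative ATPase that is abundant in differentiated cells, measured 1.54, 1.74 and 1.52 TPM in WT, 1.03, 0.921 and 1.09 TPM in dKO and 3.39, 3.34 and 3.41 TPM in dCD. The 3 lines did not overlap, with dKO lowest and dCD highest. Smarca2 rose in dCD to 2.11 times the WT mean (limma log2 fold change 0.75 with SE 0.0815, adjusted p = 2.22e-05) and fell in dKO to 0.63 times it (limma log2 fold change -0.37 with SE 0.0815, adjusted p = 0.00213). At this level the pseudocount of 1 TPM shrinks the log2 values: at a pseudocount of 0.1 they were 1.04 and -0.61, and with voom 1.06 and -0.79. Each value rests on 114 to 826 reads. Even in dCD, Smarca2 made up only 1.14% to 1.18% of the summed TPM of the ATPase pair, against 0.470% to 0.536% in WT and 0.292% to 0.341% in dKO. In bulk RNA, more cells with a transcript and more transcript per cell cannot be told apart. Of 8 trophoblast markers tested 6 were higher and 1 lower in dCD, beside 28.9% and 29.5% of all tested genes. In dKO, where Smarca2 fell, 4 were higher and 2 lower. The 9 listed summed to 133 to 137 TPM in dKO, 109 to 119 in WT and 601 to 638 in dCD. Most of that sum came from the keratins Krt8 and Krt18, at 197 to 213 and 299 to 321 TPM in dCD against 20.9 to 22.9 and 13.5 to 16.9 in WT. Gata3, Cdx2, Hand1 and Tfap2c were higher as well (limma log2 fold changes 2.34, 1.69, 1.47 and 0.22). Gata3 measured 19.6 to 21.8 TPM in dCD against 3.13 to 3.53 in WT. Elf5 was at most 0.0351 TPM in any library, Eomes did not pass (0.01, limma adjusted p = 0.934) and Ascl2 fell (-0.61, limma adjusted p = 0.00121). The 8 listed primitive endoderm markers summed to 27.4 to 29.8 TPM in dCD, 15.4 to 16.1 in dKO and 9.12 to 10.6 in WT. Most of the higher sum in dCD was Dab2, at a mean of 14.2 against 0.463 TPM in WT. Of 5 tested 3 were higher in dCD, while Gata4 and Sox7 did not pass (limma adjusted p = 0.253 and 0.324). Of 9 fibroblast markers tested 6 were higher and 2 lower in dCD, and 5 were higher and 3 lower in dKO. The 16 listed summed to 741 to 790.4 TPM in dCD and 766 to 809 in WT. Most of that sum was Fn1, which fell, at 589 to 638 TPM in dCD and 649 to 691 in WT. The collagens Col1a1, Col1a2, Col3a1 and Col5a2 had means of 0.470, 0.0189, 0.00873 and 0.541 TPM in WT. In dCD they had means of 7.57, 6.45, 1.23 and 17.9 TPM, while Col5a1 did not pass (-0.07, limma adjusted p = 0.177). In dKO the means of Col1a1, Col1a2, Col3a1 and Col5a2 were 10.2, 1.28, 1.11 and 4.07 TPM, and Col5a1 was lower (-0.93). The defining fibroblast markers Dcn, Lum, Twist2 and Postn were under 1 TPM in every library, with Twist2 at 0 in all WT and Lum at 0 in all dCD libraries. Of the other defining ones, Thy1 was higher in dCD (0.45, limma adjusted p = 0.0194) and Pdgfrb was highest at up to 11.4 TPM in dCD. The part of these markers in the Smarca2 result was not tested.

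The ARID subunits, which bind DNA and define the canonical complex, showed the largest rises among the members in dKO. Arid1a, the main ARID subunit of embryonic stem cells, had 161, 159 and 157 TPM in the WT libraries and 257, 258 and 260.0 TPM in those of dKO, which is 1.63 times as much (limma log2 fold change 0.70 with SE 0.0343, adjusted p = 2.68e-08). The dCD libraries held 170.1, 156 and 173 TPM, where replicate 2 lay below all WT libraries and the other 2 above them. That difference did not pass the test (limma log2 fold change 0.06 with SE 0.0343, adjusted p = 0.134, 95% interval -0.01 to 0.14). Without dCD replicate 2 it passed (0.11, limma adjusted p = 0.00172), and it also passed with voom (0.07, adjusted p = 0.0285) and with the length trend removed (0.09, adjusted p = 0.0298). Without dCD replicate 3 the value was 0.04.

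Arid1b, the less abundant paralog that replaces Arid1a in part of the complexes, measured 20.4, 21.3 and 21.9 TPM in WT, 35.0, 33.9 and 36.4 TPM in dKO and 24.6, 22.5 and 25.5 TPM in dCD. The libraries of the lines were ordered WT, dCD, dKO with no overlap. The rise was 1.66-fold in dKO (limma log2 fold change 0.70 with SE 0.050, adjusted p = 4.84e-07) and 1.14-fold in dCD (limma log2 fold change 0.18 with SE 0.050, adjusted p = 0.00985). Arid1a and Arid1b thus rose by nearly the same factor in dKO, with log2 fold changes of 0.70 and 0.70 and 95% intervals of 0.62 to 0.78 and 0.59 to 0.81.

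Among the core subunits, Smarcc2, the scaffold paralog that is more used outside stem cells, measured 34.7, 34.2 and 35.3 TPM in WT, 50.2, 48.7 and 51.0 TPM in dKO and 36.3, 35.2 and 36.3 TPM in dCD. It rose in dKO (limma log2 fold change 0.51 with SE 0.0295, adjusted p = 9.49e-08) and did not pass in dCD, where its libraries overlapped those of WT (0.05, adjusted p = 0.203, limma). Its partner paralog Smarcc1, the main scaffold of the stem cell complex, went the other way. It measured 217, 218 and 223 TPM in WT, 208, 209.8 and 206 TPM in dKO and 196, 182 and 191 TPM in dCD. The fall in dCD was the larger (limma log2 fold change -0.21 with SE 0.0277, adjusted p = 0.000103). The small fall in dKO (limma log2 fold change -0.08 with SE 0.0277, adjusted p = 0.0283) lost its call without WT replicate 3 (adjusted p = 0.0912), dKO replicate 1 (0.0614) or dKO replicate 3 (0.0828) and with no filter on low genes (0.0524), and was -0.18 after median-ratio scaling.

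Smarcb1 (SNF5), the core subunit that contacts the nucleosome and is lost in rhabdoid tumours, measured 55.8, 57.5 and 55.5 TPM in WT, 70.8, 71.7 and 69.5 TPM in dKO and 56.2, 57.0 and 56.5 TPM in dCD. It rose in dKO (limma log2 fold change 0.32 with SE 0.0248, adjusted p = 8.77e-07), by 0.20 with the length trend removed, while in dCD its libraries lay among those of WT (0.01, limma adjusted p = 0.822, 95% interval -0.05 to 0.06). Smarce1 (BAF57), a core subunit with an HMG domain, measured 37.4, 37.3 and 38.4 TPM in WT, 52.2, 52.2 and 55.3 TPM in dKO and 44.9, 43.1 and 44.3 TPM in dCD. It rose in both mutant lines, more in dKO (limma log2 fold change 0.49 with SE 0.0317, adjusted p = 2.34e-07) than in dCD (limma log2 fold change 0.22 with SE 0.0317, adjusted p = 0.000168), and the lines did not overlap.

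Smarcd1 (BAF60a), a core subunit that bridges the complex to transcription factors, moved in opposite directions. It measured 176, 178 and 172 TPM in WT, 199, 198 and 197 TPM in dKO and 142, 139 and 145 TPM in dCD. It rose slightly in dKO (limma log2 fold change 0.17 with SE 0.0230, adjusted p = 6.58e-05) and fell in dCD (limma log2 fold change -0.31 with SE 0.0230, adjusted p = 1.58e-06), where it was the member with the largest fall. The rise in dKO was 0.07 after median-ratio scaling (limma adjusted p = 0.0322). Actl6a (BAF53a), the actin-related subunit that is shared with the INO80 and TIP60 complexes and is replaced by Actl6b in neurons, fell in both lines. It measured 176, 167 and 169.6 TPM in WT, 134, 132 and 136 TPM in dKO and 148, 154 and 152 TPM in dCD, and the lines did not overlap. The fall was -0.35 in dKO (SE 0.0262, limma adjusted p = 6.91e-07) and -0.18 in dCD (SE 0.0262, limma adjusted p = 0.000215).

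**Figure D2:**
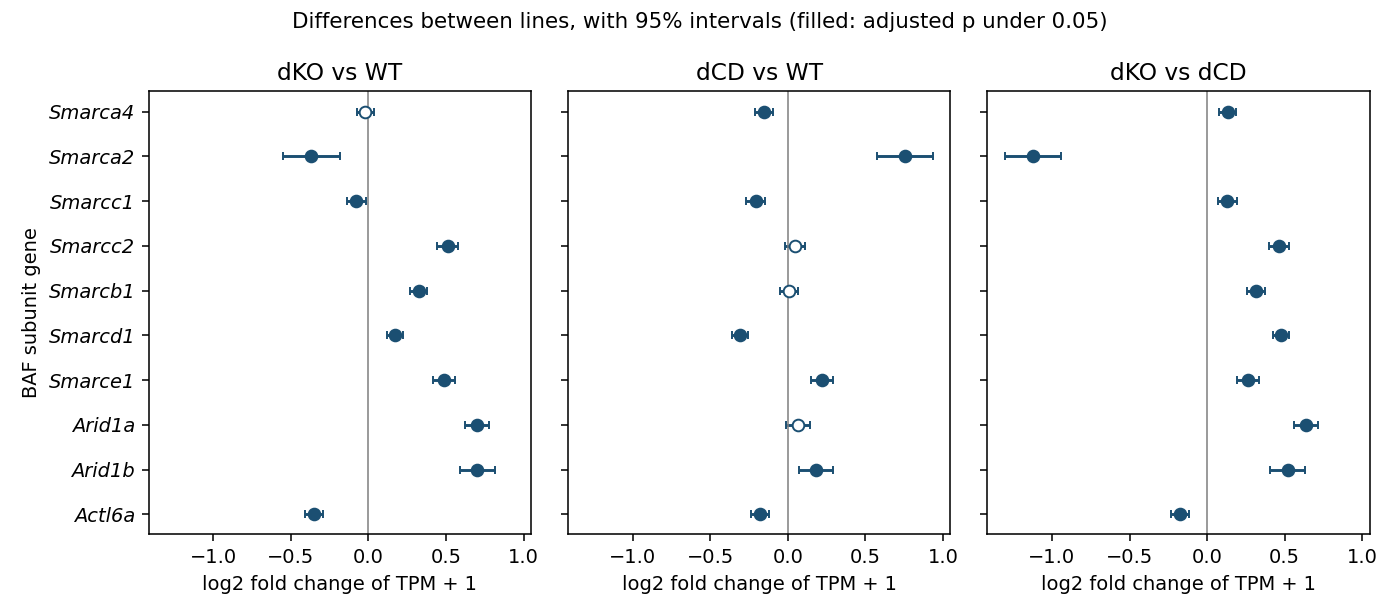
Log2 fold change of TPM + 1 (x axis) with its 95% interval for each BAF subunit gene (y axis) in the 3 comparisons; filled points passed at an adjusted p under 0.05. In dKO against WT the ARID and most core subunits lie to the right and Smarca2 and Actl6a to the left; in dCD against WT only Smarca2 lies beyond 0.5.

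All 10 members passed the test in at least 1 comparison, but passing was common in these data. In dKO against WT 9 of 10 members passed, 6 higher and 3 lower, where 71.8% of all tested genes did (43.4% higher and 28.4% lower). The median log2 fold change of the members was 0.25, beside 0.10 over all tested genes. After median-ratio scaling 6 were higher and 4 lower, with a median of 0.14. In dCD against WT 7 of 10 passed, 3 higher and 4 lower, where 58.4% of all tested genes did (28.9% higher and 29.5% lower). Here the members' median was 0.03, beside -0.01 over all. No member reached a 2-fold change against WT on the log2(TPM + 1) scale, which 13.9% of tested genes did in dKO and 6.94% in dCD. Libraries did not overlap between dKO and WT for 9 members and between dCD and WT for 7, where 74.4% and 63.5% of tested genes did not. With 10 members these counts lie near the backgrounds, so that passing the test is not a result about the list; the sizes and directions of single members are. Both comparisons use the same WT libraries.

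**Figure D3:**
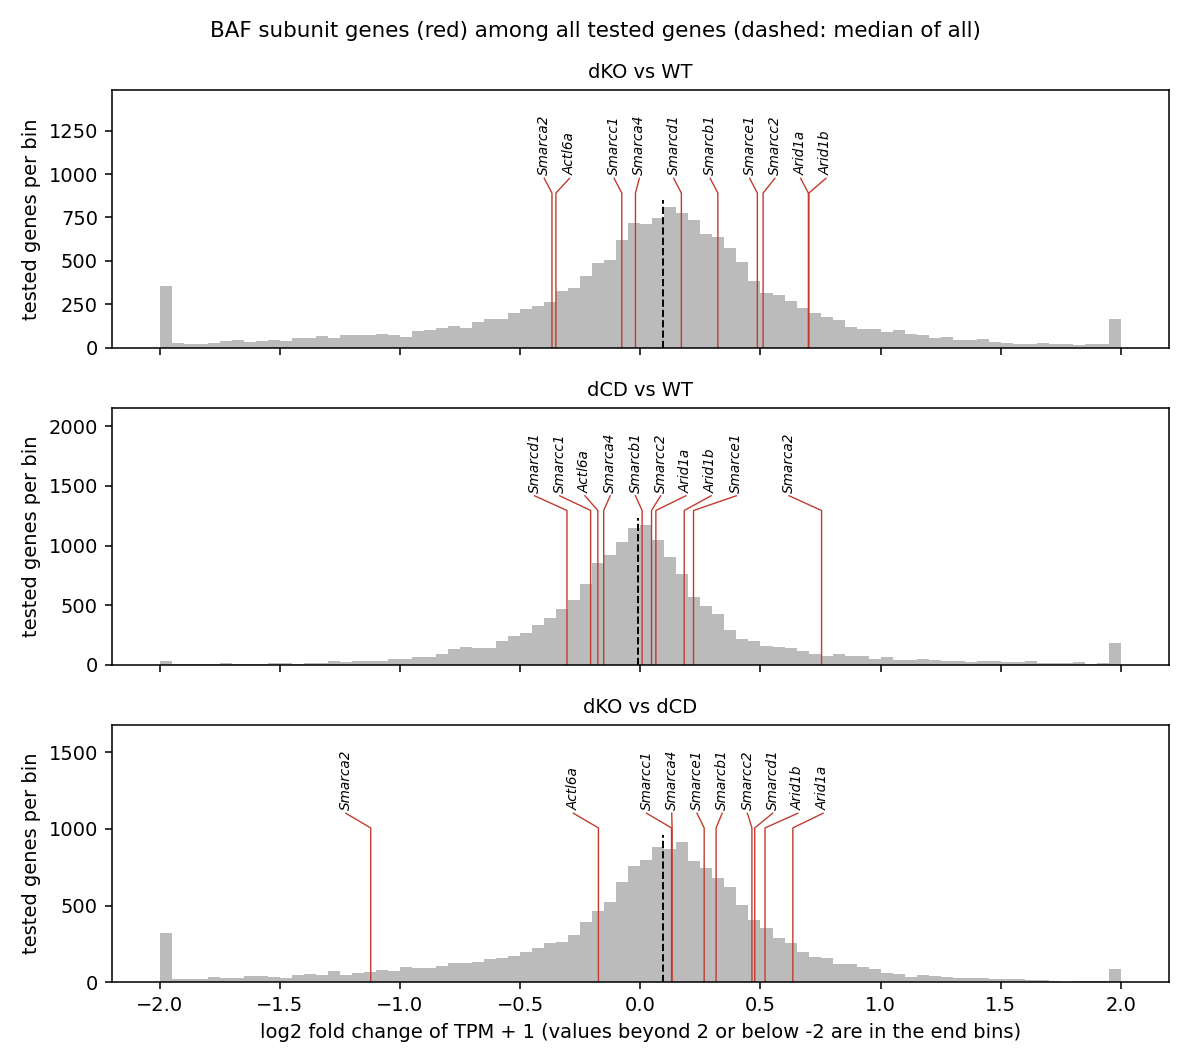
Histograms of the log2 fold change of all 16179 tested genes (grey, genes per bin on the y axis) in the 3 comparisons, with the 10 BAF subunit genes as red lines and the median of all genes dashed. The members lie within the bulk of the distribution in dKO and dCD against WT; Smarca2 at -1.12 in dKO against dCD lies furthest out.

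The direct comparison of dKO with dCD asked whether loss of the proteins and loss of catalysis left these genes at different levels. All 10 members differed, 8 higher and 2 lower in dKO, where 69.3% of all tested genes differed (42.3% higher and 27% lower). The largest difference was that of Smarca2 (limma log2 fold change -1.12 with SE 0.0815, adjusted p = 6.83e-07), which was at 0.30 times the dCD level. It was the only member past 2-fold on the log2(TPM + 1) scale, as were 11% of all tested genes. Arid1a was higher in dKO (limma log2 fold change 0.63 with SE 0.0343, adjusted p = 7.26e-08), followed by Arid1b at 0.52, Smarcd1 at 0.48, Smarcc2 at 0.46, Smarcb1 at 0.32 and Smarce1 at 0.27. Smarca4 and Smarcc1 were higher by only 0.13 and 0.13, and neither passed with voom, with the length trend removed or after median-ratio scaling (0.03, adjusted p = 0.357, and 0.02, adjusted p = 0.408, limma). Actl6a was lower in dKO (-0.17, limma adjusted p = 0.000165). After median-ratio scaling Smarce1 was at 0.16 and Actl6a at -0.28, and with voom Smarca2 was at -1.85. Libraries of dKO and dCD did not overlap for any of the 10, as for 73.1% of tested genes. By the moderated F test among the 3 lines all 10 passed, where 82.6% of tested genes did. Arid1a and Smarcd1 had the largest F, which sets differences against the spread (adjusted p = 3.29e-08 and 5.69e-08, limma moderated F test).

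The other genes of the BAF family were 21 listed subunits, of which 20 passed the filter on low values and Actl6b did not. In dKO against WT 11 were higher and 7 lower, where 43.4% of the genes tested rose and 28.4% fell, with a median log2 fold change of 0.10. After median-ratio scaling 9 were higher and 8 lower. In dCD against WT only 6 of 20 passed, 3 higher and 3 lower, a share below the 58.4% of all tested genes; with voom 9 passed.

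All 4 subunits that mark the PBAF complex were higher in dKO, as were 43.4% of all tested genes. Arid2, its ARID subunit, measured 31.7, 30.1 and 32.8 TPM in WT, 62.1, 61.3 and 62.8 TPM in dKO and 44.9, 41.5 and 44.1 TPM in dCD. In dKO it rose to 1.97 times the WT level (limma log2 fold change 0.96 with SE 0.0395, adjusted p = 7.31e-09), and was intermediate in dCD (limma log2 fold change 0.45 with SE 0.0395, adjusted p = 4.79e-06). Phf10, a PHD finger subunit, rose from 35.3 ± 0.610 to 53.7 ± 0.583 TPM (log2 fold change 0.59). Pbrm1, which carries the bromodomains of PBAF, and Brd7 had log2 fold changes of 0.32 and 0.25. All 4 stayed higher under every scaling tried, Pbrm1 at 0.20 and Brd7 at 0.13 with the length trend removed. In dCD, Phf10, Pbrm1 and Brd7 did not pass (limma adjusted p = 0.408, 0.719 and 0.299). Together Arid1a, Arid1b and Arid2 summed to 210.1 to 213 TPM in WT, 353 to 359 in dKO and 219.9 to 242 in dCD. The Arid2 share of that sum was 14.3% to 15.5%, 17.3% to 17.5% and 18.2% to 18.9%.

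Subunits of the noncanonical complex split. Brd9, its bromodomain subunit, rose in dKO, from a mean of 45.1 ± 0.915 to 64.9 ± 0.900 TPM (limma log2 fold change 0.51 with SE 0.0292, adjusted p = 8.35e-08), and Gltscr1 (Bicra) rose from 11.2 ± 0.482 to 17.4 ± 0.495 TPM. Its paralog Gltscr1l (Bicral) fell from 81.8 ± 0.799 TPM to 60.2 ± 0.964 in dKO and 64.3 ± 1.96 in dCD (log2 fold changes -0.44 and -0.34, limma adjusted p = 1.93e-07 and 2.57e-06). Gltscr1l was thus the more abundant paralog in every line.

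The largest log2 fold changes belonged to genes that are nearly silent in WT. Bcl11a, a zinc finger protein found with BAF in blood and neural cells, had 0.195, 0.179 and 0.203 TPM in the WT libraries and 3.15, 3.37 and 3.8 TPM in those of dKO (limma log2 fold change 1.89 with SE 0.101, adjusted p = 5.16e-08). The dCD libraries held 0.217, 0.204 and 0.170 TPM and overlapped those of WT. At a pseudocount of 0.1 the dKO value was 3.60, and with voom 4.05. Bcl11b, its paralog, had 0.364, 0.360 and 0.387 TPM in the WT libraries and 1.93, 1.86 and 1.90 TPM in those of dKO (limma log2 fold change 1.08, adjusted p = 2.96e-06, and 2.24 with voom). On the log2(TPM + 1) scale no other listed subunit was past 2-fold against WT. The TPM ratio, which is not shrunk, was also past 2-fold for Dpf3 in dKO (0.191) and for Smarca2 in dCD (2.11). It was so too for the untested Actl6b in dKO (0.226), on 0 to 11 reads per library. The WT and dCD values of Bcl11a and Bcl11b rest on few reads, with a lowest count of 17 for Bcl11a and 20 for Bcl11b.

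The DPF and SS18 classes held falls as well. Dpf1, a DPF subunit of postmitotic neurons, fell in dKO, from a mean of 13.4 ± 1.29 to 8.83 ± 0.583 TPM (limma log2 fold change -0.55 with SE 0.0701, adjusted p = 4.36e-05), and Ss18l1 fell from 7.98 ± 0.0866 to 6.11 ± 0.339 TPM. Dpf3 measured 0.913, 0.672 and 0.669 TPM in WT, 0.0917, 0.12 and 0.218 TPM in dKO and 1.42, 1.69 and 1.28 TPM in dCD. It fell in dKO and rose in dCD (log2 fold changes -0.61 and 0.49, limma adjusted p = 0.00083 and 0.00474), with voom -2.43 and 0.93, on 3 to 92 reads per library. Actl6b, the neuronal partner of Actl6a, reached at most 0.152 TPM in any library. The 10 listed neuron markers summed to 396 to 416 TPM in WT, 311 to 324 in dKO and 299.7 to 314 in dCD. In dKO 2 of 7 tested were higher, Map2 and Elavl4 (log2 fold changes 1.03 and 0.73). Another 3 were lower, Tubb3, Rbfox3 and Neurod1 (-1.10, -1.03 and -0.75). Tubb3 measured 185 ± 9.09 TPM in WT and 85.9 ± 1.96 in dKO. Of the defining ones Snap25 and Syt1 were under 1 TPM in every library. Rbfox3 had means of 1.23 TPM in WT, 0.085 in dKO and 0.204 in dCD. Stmn2 measured 195 to 204 TPM in WT, 207 to 215 in dKO and 87.8 to 95.5 in dCD. The part of the neuron markers in these values was not tested.

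Among the remaining subunits, Smarcd2 and Bcl7c passed in neither mutant line against WT. Smarcd3, the SMARCD paralog of muscle and heart, rose in dKO from 4.6 ± 0.175 to 6.14 ± 0.412 TPM (log2 fold change 0.35). Its fall in dCD (-0.21, limma adjusted p = 0.0207) lost its call without WT replicate 1 (adjusted p = 0.0655) or dCD replicate 1 (0.0764). Bcl7a was lower in both mutant lines, with log2 fold changes of -0.26 in dKO and -0.43 in dCD. Bcl7b and the beta-actin gene Actb, whose product is also a BAF subunit, were lower in dKO (-0.20 and -0.30, and -0.30 for Bcl7b after median-ratio scaling). Dpf2, the DPF subunit of stem cells, was higher in both (0.13 and 0.16), but in dKO it did not pass after median-ratio scaling (0.03, limma adjusted p = 0.281). The small rise of Ss18 in dKO (0.06) changed sign after that scaling (-0.04, limma adjusted p = 0.113).

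**Figure D4:**
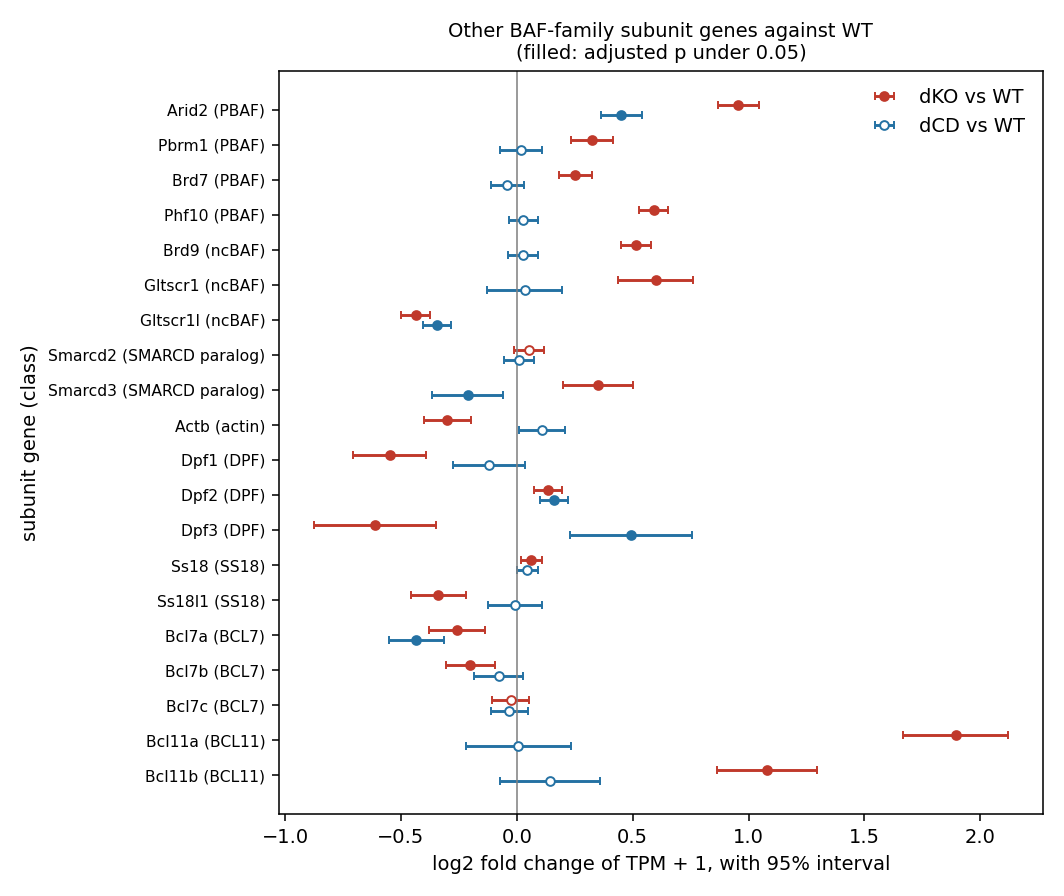
Log2 fold change of TPM + 1 against WT (x axis) with its 95% interval for 20 other BAF-family genes (y axis, class in brackets), dKO in red and dCD in blue; filled points passed at an adjusted p under 0.05. The 4 PBAF genes lie to the right in dKO, Bcl11a and Bcl11b lie beyond 1, and most dCD points are open and close to 0.

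Because several subunits occupy the same place in the complex, the log2 ratio of TPM between alternatives was computed in each library. With 3 libraries against 3, the exact two-sided permutation test cannot go below p = 0.1. The Smarca4:Smarca2 ratio was 7.73, 7.53 and 7.71 in WT, 8.27, 8.42 and 8.19 in dKO and 6.44, 6.38 and 6.44 in dCD. It was higher in dKO by 0.64 and differed from WT by -1.24 in dCD, both with exact p = 0.1 and no overlap. The Smarcc1:Smarcc2 ratio was 2.64, 2.67 and 2.66 in WT, 2.05, 2.11 and 2.01 in dKO and 2.43, 2.37 and 2.40 in dCD. It was lower in both mutant lines, with differences of -0.60 and -0.26 (exact p = 0.1 for each), so that Smarcc2 made up 13.6% to 13.8% of the pair in WT and 18.8% to 19.9% in dKO.

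The Arid1a:Arid1b ratio had means of 2.91 ± 0.0695 in WT and 2.88 ± 0.0461 in dKO (SD, n = 3, exact permutation p = 0.6), and overlapping libraries. In dCD its mean was 2.78 ± 0.0194, a difference of -0.13 from WT, while dKO differed from dCD by 0.10 (exact p = 0.1 and no overlap for each). Arid1a:Arid2 was lower in both mutant lines, with differences of -0.27 in dKO and -0.40 in dCD (exact p = 0.1 for each). Smarcd1:Smarcd2 was 0.12 higher in dKO and differed by -0.32 in dCD (exact p = 0.1 for each). In all, 9 pairs were compared in 3 contrasts. Adjustment over this family cannot bring any value below 0.1. Nearly all had exact p = 0.1 and no overlap, so that this does not single out a pair. The exceptions, all against WT, were Arid1a:Arid1b in dKO and Smarcd1:Smarcd3 and Ss18:Ss18l1 in dCD (exact permutation p = 0.6, 0.5 and 0.2). The largest difference from WT was that of Dpf2:Dpf3 in dKO (2.61), on few reads of Dpf3.

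**Figure D5:**
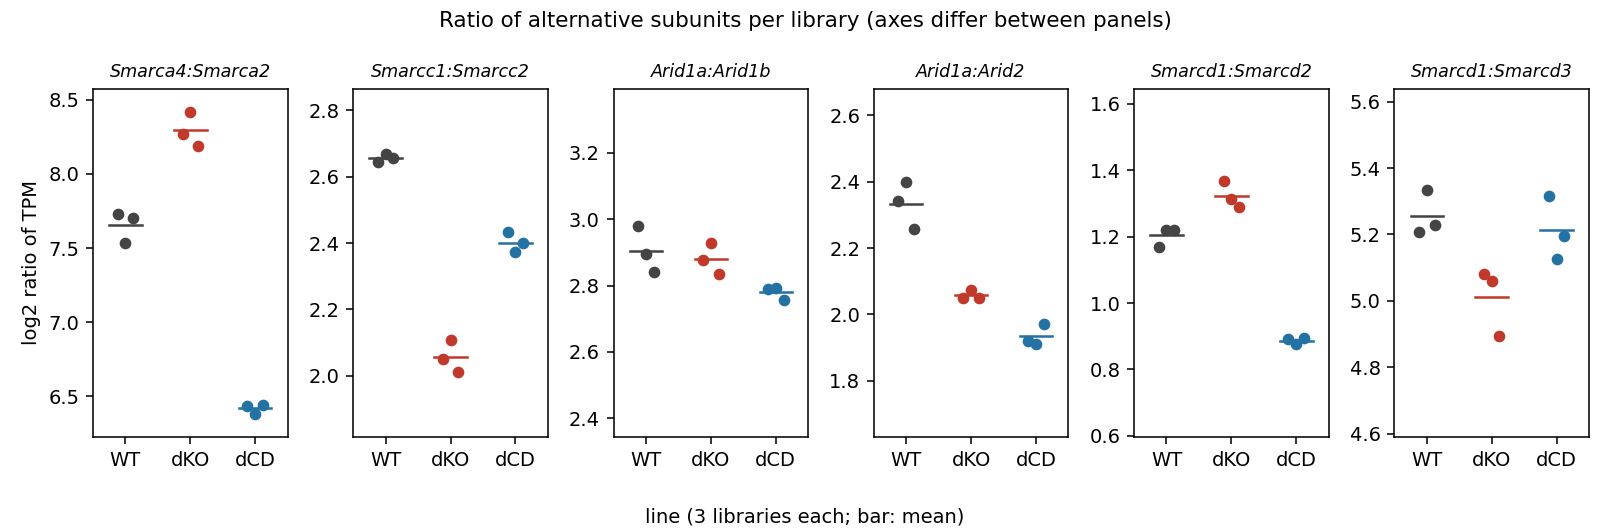
Log2 ratio of TPM (y axis, scaled separately in each panel) between alternative subunits in each library of WT, dKO and dCD (x axis), with the mean as a bar. The Smarca4:Smarca2 ratio is highest in dKO and lowest in dCD, while Arid1a:Arid1b overlaps between WT and dKO.

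Genes with the most similar pattern were sought for Arid1a and Smarcd1, the members with the largest F, as the smallest root mean square difference over the 9 libraries of log2(TPM + 1) centred on WT. Among 10015 named genes with a mean of at least 5 TPM, those closest to Arid1a were Trp53inp2, Epb41l5 and Marcks, at differences of 0.03, 0.03 and 0.04. Marcks, for example, measured 92.1 ± 1.07 TPM in WT, 155 ± 1.53 in dKO and 97.8 ± 2.77 in dCD. Those closest to Smarcd1 were Tdh, St6galnac6 and Ift172, at 0.02, 0.02 and 0.03. Tdh, the threonine dehydrogenase of mouse embryonic stem cells, measured 641 ± 15.1 TPM in WT, 723 ± 13.4 in dKO and 518 ± 4.99 in dCD.

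The other remodeller families served only to place the BAF genes, beside the 71.8% of all tested genes called in dKO (43.4% higher, 28.4% lower) and the 58.4% in dCD. In dKO against WT, ISWI genes numbered 3 higher and 3 lower of 11, with a median log2 fold change of -0.03. CHD and NuRD genes numbered 11 and 7 of 18, with a median of 0.18, and INO80, SRCAP and TIP60 genes 7 and 3 of 17, with a median of 0.03, beside 0.25 for the 10 members. In dCD against WT the counts were 3 higher and 5 lower for ISWI, 6 and 5 for CHD and NuRD, and 3 and 5 for INO80, SRCAP and TIP60. Unlike Smarca4, at -0.02 in dKO, the ATPases Chd3 and Chd7 were more than 2-fold higher there (log2 fold changes 1.54 and 1.19) and Chd5 more than 2-fold lower (-1.40). Ino80, whose complex shares Actl6a, was lower in both mutant lines (-0.66 in dKO and -0.46 in dCD, limma adjusted p = 3.49e-08 and 1.28e-06). The other INO80 genes did not move together. Ino80d was lower in both lines (-0.66 and -0.31) and Ino80b higher in both (0.73 and 0.17). Ino80c was lower in dKO and higher in dCD (-0.28 and 0.14). Actr5 and Actr8 were higher in dKO (0.34 and 0.18) and did not pass in dCD, and Ino80e passed in neither line.

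Overlap with other genes touches few of these values. In the RefSeq gene table of GRCm38.p6, Smarca2, Smarcd1, Arid1a and Arid1b overlap noncoding or pseudogene entries. The highest of those found in the table was the pseudogene Gm15599 within Arid1b, at up to 1.72 TPM. Those found for Smarca2 reached at most 0.276 TPM. Gm52395 at Smarca2, Gm34939 and Gm17241 at Smarcd1 and Gm34854 at Arid1b had no TPM values under these names. The pseudogene Smarce1-ps1 reached at most 0.109 TPM. The strand setting of the counting is not given in the sources used here, so reads of overlapping genes cannot be told apart.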

How the data were processed

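RNA-seq libraries of 3 cell lines, 3 each, were analysed, grouped by title. Samples of other assays were not analysed here. The authors deposited a gene length and TPM values for each library. HISAT2, featureCounts, DESeq2 and the build mm9 are named, without roles, per the submitters' processing notes. Versions, annotation and strand setting: not given in the sources used here. TPM multiplied by length fell on whole multiples of a fixed step in each library (100% whole within 0.01), which gave the depth in reads. Replicates of a line differed by more than sampling noise (chi-square per degree of freedom 1.58 to 4.14).

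Genes with at least 1 TPM in at least 3 of 9 libraries (16179 of 48321 rows; 27 rows with date-like names stayed unnamed) entered 1 fit of all 9 libraries on log2(TPM + 1) with limma 3.58.1 (R 4.3.3; lmFit, eBayes with trend). Tests were two-sided, with Benjamini-Hochberg adjustment over all tested genes and a threshold of 0.05. Fold changes on this scale understate the change of low genes. Paralog ratios used exact permutation tests (scipy 1.17.1). The fit was tested on simulated data. Alternatives were another pseudocount, other filters, median-ratio and quantile scaling, voom on recovered reads, 2-line fits, a replicate block, each library left out, a 2-fold threshold and, chosen after seeing the data, removal of a gene length trend.

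The members, lists and tests were chosen with earlier results of these data known. All 10 members were named; other subunits were named from a list, in full for those with the largest called changes.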

Additional observations from a re-analysis of the deposited data

How the results depend on the processing

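Every call count for the members, the other subunits and all genes stayed within 1.5 times its value under the alternatives tried, except at a 2-fold threshold. There 0 members passed in dKO and 0 in dCD against WT, and 1 in dKO against dCD; of the other subunits 2, 0 and 2 passed, and of all genes 2249, 1123 and 1774. Of the single values for the members, 520 kept their direction and side of the threshold, 6 passed only under the alternative, 9 no longer passed and 2 changed sign. Smarcb1 in dCD, never called, ranged from -0.0022 to 0.022 over the libraries left out. With the length trend removed, Smarcc1 in dKO against dCD was -0.0051 (limma adjusted p = 0.862) and Ss18 in dKO against WT was -0.053; Ss18 was -0.040 with median-ratio scaling and -0.042 with voom. Of the paralog ratios, Arid1a:Arid1b in dKO ranged from -0.056 to 0.012 and Smarcd1:Smarcd3 in dCD from -0.095 to 0.00026 over the libraries left out. The cause was not tested in these cases. Same-numbered replicates of different lines did not deviate together (correlations of -0.049 to 0.042, against -0.0655 to 0.0726 for different-numbered ones). No shared effect of the replicate number was seen, but these values cannot show whether same-numbered libraries were handled together. With the replicate block 11533, 9273 and 11114 genes passed in dKO against WT, dCD against WT and dKO against dCD, with 9, 7 and 10 members and no call changed among the BAF genes. At a minimum of 5 TPM, Smarca2 was not tested. Depth limits mainly Dpf3, Bcl11a, Bcl11b and Actl6b.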
